A study of Arabidopsis thaliana with 11 samples.

Results

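The expansin superfamily of Arabidopsis thaliana was followed gene by gene in whole seedlings of 2 lines, with and without the peptide PSY1. A list of 35 loci was used, with 26 alpha-expansins (EXPA), 5 beta-expansins (EXPB), 3 expansin-like A genes (EXLA) and 1 expansin-like B gene (EXLB). A probe was assigned to a locus through the RefSeq transcript named for it on the array. By this match 33 of the 35 loci had a probe, and EXPA19 and EXPB5 did not. Of these 33 loci, 27 were measured well enough to be tested (21 EXPA, 2 EXPB, 3 EXLA and 1 EXLB), out of 21923 loci tested on the whole array, and 23 of them were well above background on all 11 arrays.

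The 4 groups were compared on 11 single-colour arrays, with 1 RNA sample to an array. The psy1r + PSY1 group (replicates 1 and 3) held knockout seedlings of the PSY1 receptor gene PSY1R that had received 10 nM PSY1 for 4 h. The psy1r group (replicates 1 to 3) held the same knockout line without peptide. The WT + PSY1 group (replicates 1 to 3) held wild type seedlings given 10 nM PSY1 for 4 h, and the WT group (replicates 1 to 3) held untreated wild type seedlings. All seedlings were grown for a week in shaken liquid medium under continuous light, and a sample was RNA from a pool of whole seedlings. A replicate 2 of psy1r + PSY1 was not analysed here. The knockout is represented by a single line.

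Expansins are small secreted proteins of the plant cell wall that loosen the contacts between cellulose and other wall polysaccharides without cutting them. They act best in an acid wall, and the growing cell acidifies its wall with plasma membrane proton pumps. Different members are known for different organs in Arabidopsis, such as root hairs, lateral roots, leaves and germinating seeds. PSY1 is a sulfated peptide that promotes cell expansion, and PSY1R is a receptor kinase that phosphorylates a proton pump of this kind. The comparisons ask which expansin transcripts differed after peptide treatment, and which differed between the lines without and with peptide.

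Values are log2 of the background-subtracted spot signal, scaled so that the arrays share the same 75th percentile. A signal of 1 unit more is a doubling, and levels are compared between arrays for the same probe only. A locus was called in a comparison when limma gave an adjusted p below 0.05 and the groups differed by more than 2-fold. The receptor gene PSY1R (AT1G72300) had a signal of 3.12 and 5.91 on the psy1r + PSY1 arrays, 4.06, 4.12 and 2.08 on the psy1r arrays, 9.15, 8.95 and 9.18 on the WT + PSY1 arrays and 9.42, 9.45 and 8.77 on the WT arrays. It was low on every array labelled psy1r, where 1 of the 2 treated and 1 of the 3 untreated arrays had it well above background, and was called lower in psy1r than in WT (adjusted p = 0.0104). Its fitted log2 difference of -5.79 ± 0.73 (SE) rests partly on signals at background. The gene of the PSY1 precursor (AT5G58650) did not pass the test in any of the 5 comparisons, with log2 fold changes between -0.41 and 0.36. Detection was similar among arrays, at 72.27% to 81.82% of probes, without saturated spots.

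The replicates of a group were not equally far apart, and this bears on every test. Over 8 probes printed several times on the array, spots of the same array differed by a median of 0.063 to 0.13 on the log2 scale. Over the same probes, replicates 1 and 2 differed by 0.107 in psy1r and 0.092 in WT, and the WT + PSY1 arrays by 0.068 to 0.096. Replicate 3 differed from these by 0.314 and 0.352 in psy1r and by 0.229 and 0.264 in WT, and the 2 psy1r + PSY1 arrays differed by 0.354. Replicates 1 and 2 of psy1r, replicates 1 and 2 of WT, and all 3 WT + PSY1 arrays thus differed by about as much as repeated spots of a single array did. For WT replicates 1 and 2 the difference was slightly larger than that between spots within either array, 0.076 and 0.082. Replicates 1 and 2 of psy1r and of WT were counted as 1 sample in the group means of EXPA2 below. Other means and log2 fold changes are over all arrays unless stated. The tests were made on the 11 arrays. EXPA2 and EXPA3 in psy1r against WT, and EXLB1 in WT + PSY1 against WT, are also given with close arrays counted as 1 sample. This choice was made after seeing the data. P-values over arrays that are this alike measure a spread that may be technical. Arrays of the same replicate number were on the same slide, so values are also given within a slide.

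EXPA2 (AT5G05290), an alpha-expansin known from germinating seeds, was the 1 expansin called in any comparison. Its signal was 9.69, 9.68 and 9.44 on the psy1r arrays, against 3.89, 4.41 and 5.62 on the WT arrays. With replicates 1 and 2 counted as 1 sample, the mean was 9.56 ± 0.17 in psy1r and 4.89 ± 1.04 in WT (SD, n = 2 each). The groups were far apart, with the lowest psy1r array well over the highest WT array. The log2 fold change over all arrays was 4.96 ± 0.62 (SE), which is 31.2-fold, with an adjusted p of 0.0103 in limma's test over all probes. Within a slide, the difference of psy1r minus WT was 5.80 on slide 1, 5.27 on slide 2 and 3.83 on slide 3. With replicates 1 and 2 of both groups counted as 1 sample, the log2 fold change was 4.68 and the call was lost (adjusted p = 0.229), and with the WT + PSY1 arrays counted as 1 sample too the adjusted p was 1. It was also lost without WT replicate 1, WT replicate 2, psy1r replicate 1 or psy1r replicate 2, with adjusted p-values of 0.0507, 0.0594, 0.0548 and 0.0529. The methods' t-test did not call it (adjusted p = 0.0933), nor did the fit with replicates 1 and 2 averaged in each group (adjusted p = 0.519).

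The level of EXPA2 was less even in the treated knockout. Its signal was 8.75 and 6.14 on the psy1r + PSY1 arrays, against 5.37, 5.27 and 5.42 on the WT + PSY1 arrays. Both knockout arrays were higher than all WT + PSY1 arrays, but replicate 3 was higher by 0.72 within its slide and replicate 1 by 3.37. The log2 fold change was 2.09 ± 0.70 (SE), which did not pass the test (adjusted p = 0.147). Without psy1r + PSY1 replicate 3 it was 3.39 (adjusted p = 0.0451, limma), in a fit where 1 array stands for the group and is assumed to vary like the others. Both psy1r + PSY1 arrays were also below all 3 psy1r arrays, by 0.94 on slide 1 and by 3.30 on slide 3, with a log2 fold change of -2.16 ± 0.70 (SE, adjusted p = 0.644). The WT + PSY1 arrays lay inside the range of the WT arrays, with a log2 fold change of 0.72 ± 0.62 (SE, adjusted p = 0.539).

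Seed transcripts also differed between the arrays, and they are given here because EXPA2 is a gene of germinating seeds. Over a list of 18 seed storage, oil body and late embryogenesis genes, the mean log2 signal was 5.32 and 10.47 on the psy1r + PSY1 arrays, 5.63 to 5.85 on the psy1r arrays, 4.46 to 5.10 on the WT + PSY1 arrays and 4.55 to 5.24 on the WT arrays. The list was uneven in psy1r against WT, where 10 of its 17 tested genes were higher and 7 lower by their brightest probes, with a median log2 fold change of 0.59 and none called (3 with an unadjusted p below 0.05). These counts depend on the probe that stands for a gene, as given below.

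Several seed genes were high on all 3 psy1r arrays without overlap, as EXPA2 was. GEA6, a late embryogenesis gene, had a signal of 8.43, 8.62 and 8.19 on the psy1r arrays, against 4.32, 4.51 and 5.07 on the WT arrays (log2 fold change 3.78 ± 0.95, SE, adjusted p = 0.1). GEA1, another such gene, had 8.59, 8.58 and 8.56 on the psy1r arrays, against 6.65, 6.89 and 5.51 on the WT arrays (2.23 ± 0.65, SE, adjusted p = 0.139). PER1, a seed peroxiredoxin, and CRC, a seed storage protein, were well above background by their brightest probes on every psy1r array and on no WT array. By these probes they were at least 5.79-fold and 8.42-fold higher in psy1r (adjusted p = 0.181 and 0.393). The other tested CRC probe gave a log2 fold change of -0.06 ± 0.86 (SE, adjusted p = 0.983). The brightest CRC probe was also well above background on all 3 WT + PSY1 arrays, with 4.92, 5.89 and 6.12. There CRC was at least 4.65-fold higher than in WT (adjusted p = 0.441). These fold bounds set the dim group at the lowest signal well above background on each array. RAB18 gave opposite values by probe, with -0.45 by the brightest and 4.59 ± 1.16 (SE, adjusted p = 0.1) by another. CRA1 gave -0.15 by its brightest probe, but was at least 13.5-fold and 1.64-fold higher by others (adjusted p = 0.224 and 0.563). Other probes of OLEO1 and OLEO2 were at least 3.4-fold and 1.66-fold higher (adjusted p = 0.299 and 0.401). The other tested SESA3 probe was well above background on no psy1r and no WT array. By their brightest probes, 6 of the 17 tested seed genes had no overlap, against 22.5% of all loci, and among these CRU2 ran the other way. The CRU2 signal was 3.44, 3.97 and 2.15 on the psy1r arrays, against 4.56, 4.38 and 4.76 on the WT arrays. Its log2 fold change of -1.375 ± 0.85 (SE, adjusted p = 0.462) rests partly on psy1r signals at background. None of these genes passed the test.

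On psy1r + PSY1 replicate 1, GEA6 had 6.42 and on replicate 3 it had 11.19, against 3.36 to 3.598 on the WT + PSY1 arrays. The summed linear signal of the 18 genes was 4915 and 54504 in psy1r + PSY1, 4226 to 5756 in psy1r, 3946 to 5277 in WT + PSY1 and 5084 to 6693 in WT. Most of it was the brightest RAB18 probe on all arrays but psy1r + PSY1 replicate 3. Without RAB18 the sum was 832 and 48650 in psy1r + PSY1, 1409, 1583 and 2480 in psy1r, 873, 992 and 995 in WT + PSY1 and 680, 735 and 2564 in WT. Its genes well above background numbered 11 and 18 on the psy1r + PSY1 arrays, 12 to 15 on the psy1r arrays, 7 to 12 on the WT + PSY1 arrays and 9 to 14 on the WT arrays. The array richest in seed transcripts, psy1r + PSY1 replicate 3, had the lowest EXPA2 signal of the knockout arrays. The part of seed RNA in the EXPA2 difference between psy1r and WT was not tested.

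**Figure D1:**
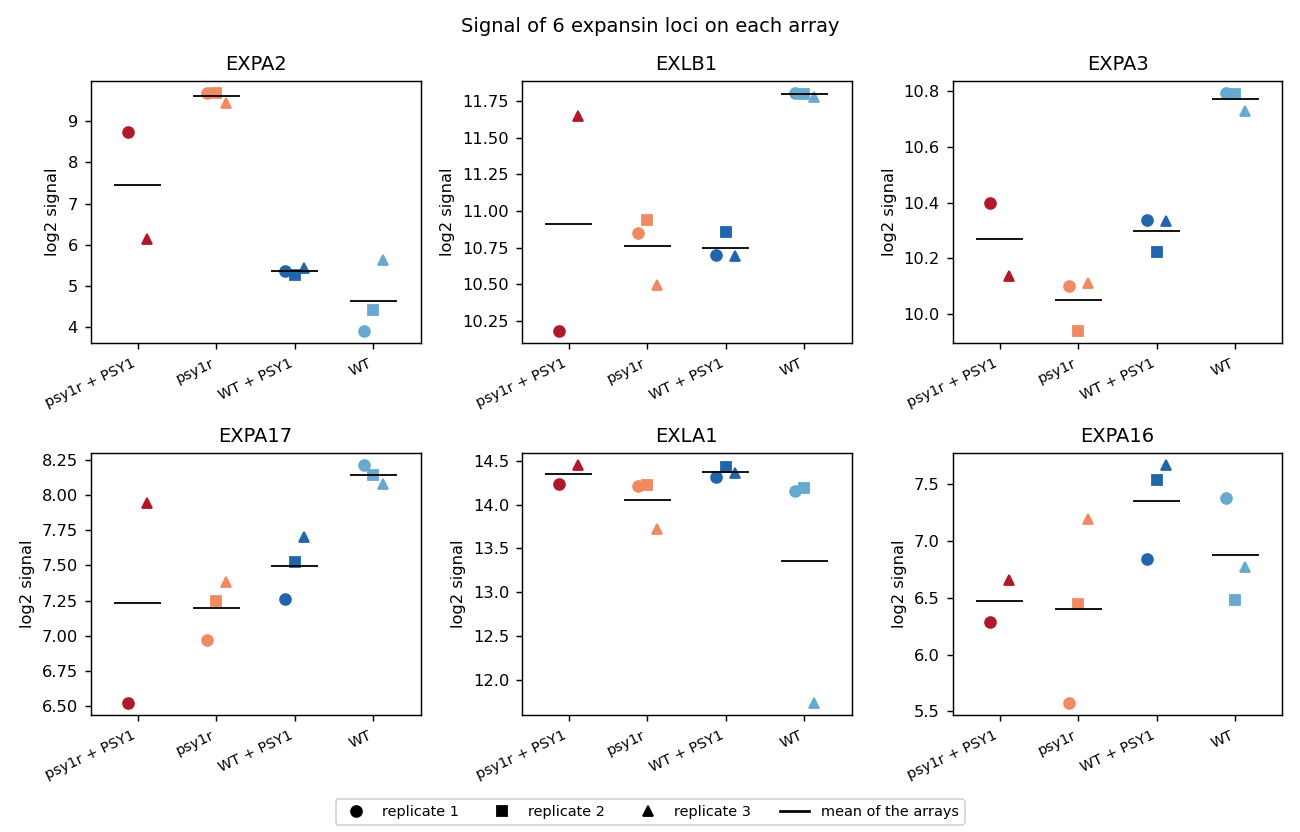
Log2 signal (vertical axis, scaled to the 75th percentile of the array) of EXPA2, EXLB1, EXPA3, EXPA17, EXLA1 and EXPA16 on each array of the 4 groups. Marker shapes give the replicate number and the horizontal bar is the mean of the arrays shown. EXPA2 lies at 9.44 or more on the psy1r arrays and at 5.62 or less on the WT arrays, while EXLA1 is low on WT replicate 3.

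In psy1r against WT, 1 of the 27 expansins was called, against 0.885% of all loci tested. The groups did not overlap for 8 of the 27, against 22.5% of all loci. Of the 27, 17 were higher and 10 lower, and the median log2 fold change was 0.10, against -0.03 over all loci tested. The 17 include EXPA23 and EXPA26, whose signals were mostly at background, so this median is not read as a shift of the family. Leaving out EXPA2, and also EXPA23 and EXPA26, which were well above background on no WT array, the log2 fold changes lay between -1.03 and 0.70. In all, 7 members including EXPA2 had an unadjusted p below 0.05.

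EXPA3 (AT2G37640) was the other expansin with an adjusted p below 0.05 in this comparison. Its signal was 10.10, 9.94 and 10.11 on the psy1r arrays, against 10.79, 10.79 and 10.73 on the WT arrays. All psy1r arrays were lower, but by less than 2-fold, with a log2 fold change of -0.72 ± 0.10 (SE, adjusted p = 0.0179). The second EXPA3 probe gave -0.73 ± 0.14 (SE, adjusted p = 0.0493), and the within-slide differences of the first were -0.69, -0.85 and -0.62. The log2 fold change lay between -0.77 and -0.59 over the alternatives tried, but the adjusted p was 0.0697 after the RMA steps, and 0.328 with the close arrays of both groups counted as 1 sample.

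EXLB1 (AT4G17030), the single member of its subfamily, was lower on every psy1r array. Its signal was 10.85, 10.94 and 10.49 on the psy1r arrays, against 11.81, 11.80 and 11.78 on the WT arrays. The log2 fold change was -1.03 ± 0.31 (SE), a 2.05-fold lower signal that did not pass the test (adjusted p = 0.154), and the second probe gave -0.87 ± 0.33 (SE). Within slides 1, 2 and 3 the differences were -0.95, -0.86 and -1.29, all of the same sign. It was called without either psy1r + PSY1 array (adjusted p = 0.00948), which form no part of this comparison but enter the common estimate of the spread.

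EXPA17 (AT4G01630), an alpha-expansin known from lateral roots, did not overlap between the lines either. Its signal was 6.97, 7.25 and 7.38 on the psy1r arrays, against 8.21, 8.14 and 8.08 on the WT arrays. This difference of -0.94 ± 0.31 on the log2 scale (SE) did not pass the test (adjusted p = 0.188). Among the higher values without overlap were EXLA2 (AT4G38400) and EXPA6 (AT2G28950). The EXLA2 signal was 9.84, 9.78 and 9.67 on the psy1r arrays, against 9.52, 9.55 and 8.67 on the WT arrays, with a log2 fold change of 0.52 ± 0.21 (SE, adjusted p = 0.272) that was 0.23 without WT replicate 3. The EXPA6 signal was 12.73, 12.83 and 13.08 on the psy1r arrays, against 12.65 and 12.50 on WT replicates 2 and 3, with a log2 fold change of 0.31 ± 0.14 (SE, adjusted p = 0.33). Its spot on WT replicate 1 was flagged as an outlier and was left out of the fit.

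**Figure D2:**
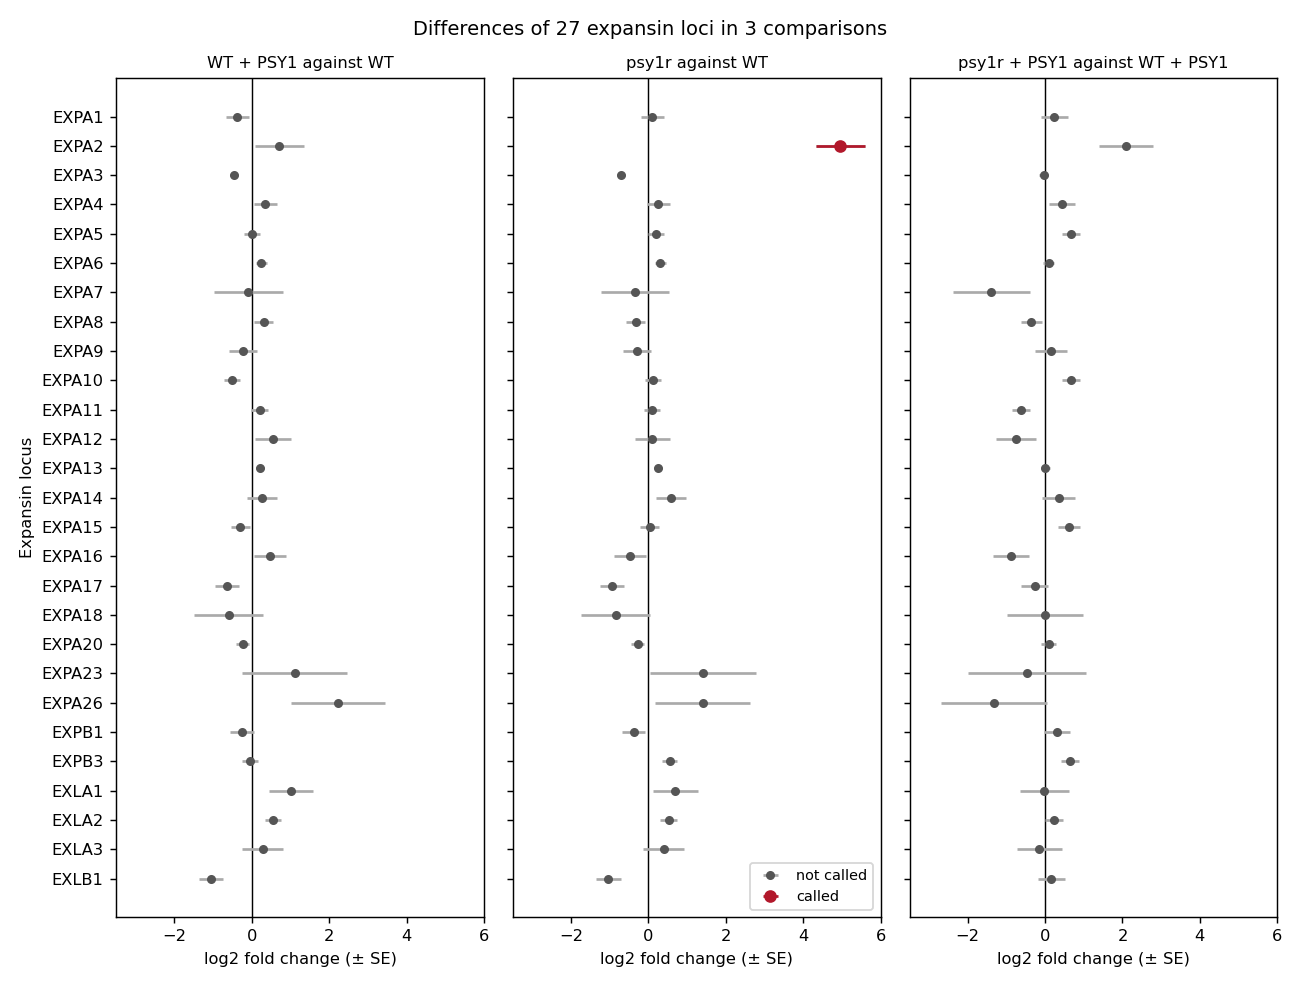
Log2 fold change (horizontal axis) of the 27 tested expansin loci for the peptide response of WT, for the knockout without peptide and for the knockout with peptide (each set against the line or treatment it is compared with), with bars of 1 standard error from limma. The red point is the 1 called value, that of EXPA2 in psy1r against WT at 4.96. The points of EXPA23 and EXPA26 rest mostly on signals at background.

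In WT + PSY1 against WT, limma called none of the 27 expansins, against 0.219% of all loci tested, and 4 of the 27 had an unadjusted p below 0.05. The groups did not overlap for 11 of the 27, against 47.4% of all loci. The median log2 fold change was 0.20, with 15 members higher and 12 lower, against -0.03 over all loci. It was 0.00 with 13 higher and 14 lower when the background was corrected by normexp. The 15 higher members include EXPA23 and EXPA26, which were well above background on no WT array. The median is therefore not read as a shift of the family. The methods' t-test called 1 expansin, EXLB1.

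EXLB1 was lower on all WT + PSY1 arrays. Its signal was 10.699, 10.86 and 10.697 on the WT + PSY1 arrays, against 11.81, 11.80 and 11.78 on the WT arrays. The log2 fold change was -1.05 ± 0.31 (SE), a 2.06-fold lower signal (adjusted p = 0.124), and the second probe gave -1.39 ± 0.33 (SE, adjusted p = 0.083). The within-slide differences were -1.11, -0.95 and -1.08. It was called under some estimates of the spread. With only the WT + PSY1 and WT arrays in the fit, the same log2 fold change of -1.05 had an adjusted p of 0.0127, and with the close arrays of WT and psy1r counted as 1 sample it was -1.04 with an adjusted p of 0.298.

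EXPA17, EXPA10 and EXPA3 had lower values on every WT + PSY1 array too. The EXPA17 signal was 7.26, 7.53 and 7.71 on the WT + PSY1 arrays, against 8.21, 8.14 and 8.08 on the WT arrays (log2 fold change -0.65 ± 0.31, SE, adjusted p = 0.276). EXPA10 (AT1G26770), known from leaf growth, had a signal of 9.05, 8.86 and 8.96 on the WT + PSY1 arrays, against 9.17, 9.43 and 9.82 on the WT arrays (log2 fold change -0.52 ± 0.21, SE, adjusted p = 0.199). The EXPA3 signal was 10.34, 10.22 and 10.33 on the WT + PSY1 arrays, against 10.79, 10.79 and 10.73 on the WT arrays, with a log2 fold change of -0.47 ± 0.10 (SE, adjusted p = 0.0748). None of the 3 differences passed the test.

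Of the higher values without overlap, those of EXLA1 and EXLA2 were smaller without WT replicate 3. EXLA1 (AT3G45970) had a signal of 14.32, 14.43 and 14.36 on the WT + PSY1 arrays, against 14.15, 14.19 and 11.73 on the WT arrays. That is a log2 fold change of 1.01 ± 0.57 (SE, adjusted p = 0.338), which was 0.20 without WT replicate 3. EXLA2 had a signal of 9.84, 9.73 and 9.81 on the WT + PSY1 arrays, against 9.52, 9.55 and 8.67 on the WT arrays, and its log2 fold change of 0.55 ± 0.21 (SE, adjusted p = 0.194) was 0.26 without that array. EXPA6 had a signal of 12.74, 12.90 and 12.81 on the WT + PSY1 arrays, against 12.65 and 12.50 on the 2 WT arrays measured, with a log2 fold change of 0.24 ± 0.14 (SE, adjusted p = 0.358).

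In psy1r + PSY1 against WT + PSY1, limma called none of the 27 expansins by their brightest probe, against 1.08% of all loci tested, and 5 had an unadjusted p below 0.05. The methods' t-test called none either. The groups did not overlap for 12 of the 27, against 49.6% of all loci. In all, 15 were higher and 12 lower, with a median log2 fold change of 0.09, against -0.004 over all loci. The 12 lower members include EXPA23 and EXPA26, which were well above background on no psy1r + PSY1 array. EXPA2, described above, had the largest upward value.

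EXPA5 (AT3G29030) and EXPA10 were higher on both psy1r + PSY1 arrays by their brightest probes. EXPA5 had a signal of 9.49 and 9.82 on the psy1r + PSY1 arrays, against 8.97, 8.93 and 9.05 on the WT + PSY1 arrays (log2 fold change 0.67 ± 0.24, SE, adjusted p = 0.169). Its second probe ran the other way, with 4.48 and 6.03 on the psy1r + PSY1 arrays, against 6.01, 6.39 and 6.74 on the WT + PSY1 arrays (log2 fold change -1.12 ± 0.47, SE, adjusted p = 0.219), so EXPA5 has no settled direction here. EXPA10 had a signal of 9.77 and 9.46 on the psy1r + PSY1 arrays, against 9.05, 8.86 and 8.96 on the WT + PSY1 arrays (log2 fold change 0.66 ± 0.23, SE, adjusted p = 0.159), and its second probe gave 0.59 ± 0.23 (SE). EXPB3, a beta-expansin, gave 0.64 ± 0.22 (SE, adjusted p = 0.158) without overlap.

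EXPA16 (AT3G55500) had 2 probes of opposite sign. The brighter gave 6.28 and 6.66 on the psy1r + PSY1 arrays, against 6.84, 7.54 and 7.67 on the WT + PSY1 arrays, with a log2 fold change of -0.88 ± 0.47 (SE, adjusted p = 0.33). The dimmer gave 4.26 and 4.29 on the psy1r + PSY1 arrays, against 2.88, 3.09 and 3.31 on the WT + PSY1 arrays, with an adjusted p of 0.0273. The dimmer probe was well above background on 1 of 2 psy1r + PSY1 arrays and on 0 of 3 WT + PSY1 arrays, so no fold change is given for it. EXPA12 (AT3G15370) had a signal of 7.93 and 8.10 on the psy1r + PSY1 arrays, against 8.73, 8.62 and 8.95 on the WT + PSY1 arrays, with a log2 fold change of -0.75 ± 0.51 (SE, adjusted p = 0.45).

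In psy1r + PSY1 against psy1r, limma called none of the 27 expansins, against 0.00912% of all loci tested, and 1 had an unadjusted p below 0.05. The methods' t-test called none. The groups did not overlap for 6 of the 27, against 14.9% of all loci. In all, 18 were higher and 9 lower with a median log2 fold change of 0.05, against 0.01 over all loci. EXPA23 and EXPA26, well above background on no psy1r + PSY1 array, are among the 9 lower members. After EXPA2, the values without overlap were small. EXPA4 (AT2G39700) had a signal of 5.03 and 5.33 on the psy1r + PSY1 arrays, against 4.90, 4.76 and 4.30 on the psy1r arrays (log2 fold change 0.53 ± 0.34, SE, adjusted p = 1). EXPA5 had 9.49 and 9.82 on the psy1r + PSY1 arrays, against 9.11, 8.99 and 9.45 on the psy1r arrays (log2 fold change 0.47 ± 0.24, SE, adjusted p = 0.993), with -0.66 by its other probe. EXLA1 had 14.24 and 14.45 on the psy1r + PSY1 arrays, against 14.22, 14.23 and 13.72 on the psy1r arrays (log2 fold change 0.29 ± 0.64, SE, adjusted p = 1). None of these passed the test.

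The interaction of genotype and PSY1 is the PSY1 response in psy1r minus that in WT. Limma called none of the 27 expansins in it, against 0.0593% of all loci tested. A plain test of the same contrast over the 4 groups, without limma's sharing of the spread, called none. Of the members, 3 had an unadjusted p below 0.05. EXPA2 had an interaction of -2.88 ± 0.93 (SE, adjusted p = 0.337), EXLB1 of 1.20 ± 0.47 (SE, adjusted p = 0.4) and EXPA3 of 0.69 ± 0.16 (SE, adjusted p = 0.23). For EXLB1 the psy1r + PSY1 arrays had 10.18 and 11.65, against 10.85, 10.94 and 10.49 on the psy1r arrays, so the peptide response in the knockout was -0.67 on slide 1 and 1.15 on slide 3. These 2 arrays differed by more than the interaction itself.

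**Figure D3:**
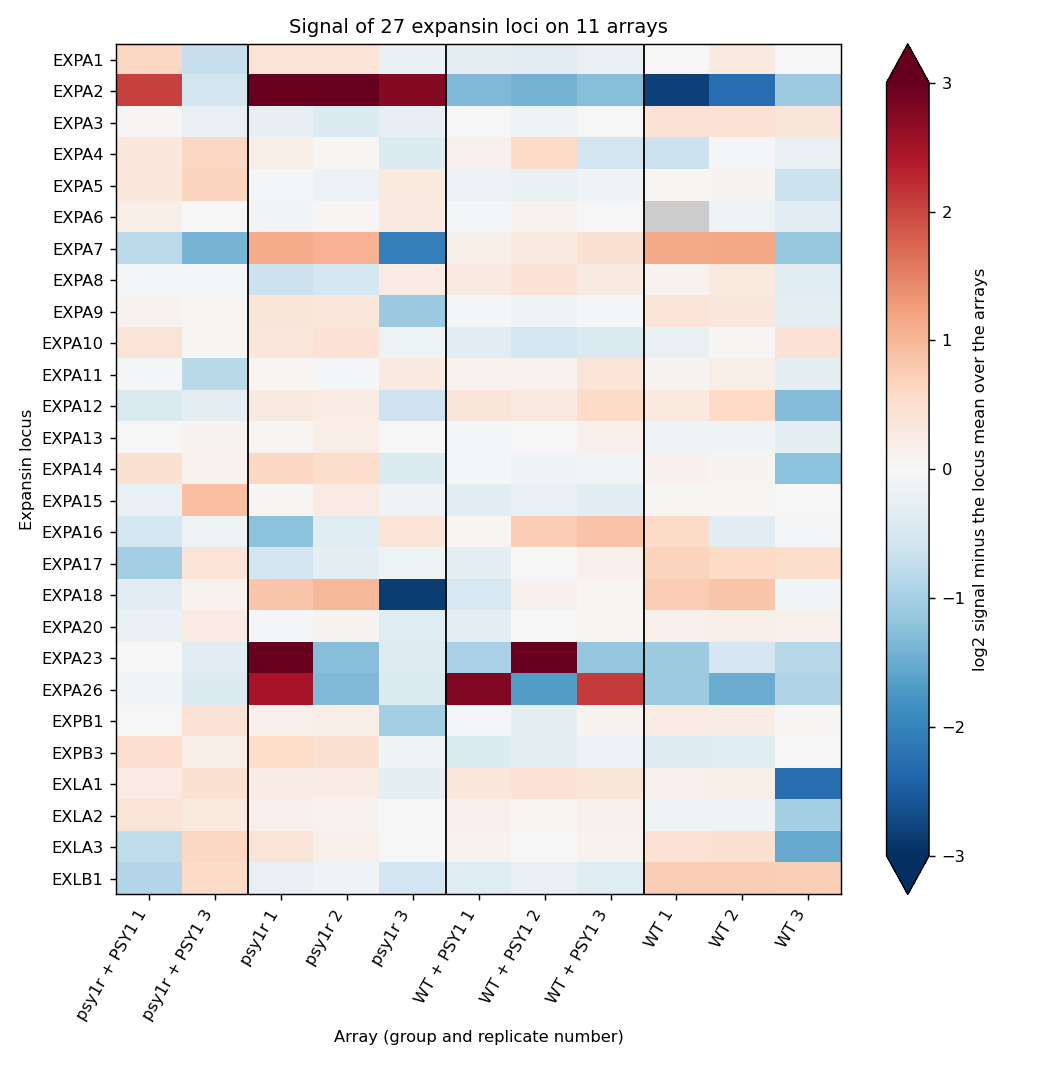
Log2 signal of the 27 tested expansin loci (rows) on the 11 arrays (columns, grouped), shown as the difference from the mean of the locus over the arrays, in red where higher and blue where lower. Grey marks the left-out EXPA6 spot. EXPA2 is high on the psy1r arrays, EXPA7 and EXPA18 are low on psy1r replicate 3, and EXPA23 and EXPA26 are high on scattered single arrays.

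EXPA7 (AT1G12560) and EXPA18 (AT1G62980) are alpha-expansins known for root hair growth. Of the members well above background on 10 or more arrays, they had the widest error, 0.89 in psy1r against WT. EXPA7 had a signal of 6.33 and 5.73 in psy1r + PSY1, 8.24, 8.18 and 5.08 in psy1r, 7.30, 7.38 and 7.58 in WT + PSY1 and 8.27, 8.28 and 5.99 in WT. EXPA18 had a signal of 5.50 and 5.92 in psy1r + PSY1, 6.63, 6.80 and 2.96 in psy1r, 5.34, 5.95 and 5.86 in WT + PSY1 and 6.58, 6.65 and 5.72 in WT. On the third psy1r array EXPA18 was not well above background. Replicate 3 was the low array of both genes in psy1r and in WT, at -3.13 and -2.28 for EXPA7 relative to the mean of replicates 1 and 2. EXPA18 was at -0.89 in WT, and in psy1r it was lower by at least 2.94, which is the distance to the lowest signal well above background on that array.

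The tests of EXPA7 and EXPA18 were wide for this reason. In psy1r against WT the log2 fold change was -0.35 ± 0.89 (SE, adjusted p = 0.89) for EXPA7 and -0.85 ± 0.89 (SE, adjusted p = 0.686) for EXPA18. EXPA7 was lower on both psy1r + PSY1 arrays than on all WT + PSY1 arrays, with a log2 fold change of -1.39 ± 0.99 (SE, adjusted p = 0.471). With replicates 1 and 2 only, a fit with 1 psy1r + PSY1 array, it was -1.01. The spread in that fit comes from arrays about as alike as repeated spots, so its p-value is not given. In WT + PSY1 against WT, the within-slide differences of EXPA7 changed sign, with -0.96 on slide 1, -0.90 on slide 2 and 1.58 on slide 3.

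Other root hair genes had their lowest values on the same arrays. Of 12 root hair genes, such as the transcription factors RHD6 and RSL4, 11 were tested, and none was called in any of the 5 comparisons. Replicate 3 was the lowest array for 10 of the 11 in psy1r and for 10 of the 11 in WT, and by more than 2-fold from both other arrays for 8 in psy1r and 7 in WT. The exception in both lines was COW1, which had its highest signal on replicate 3. The mean log2 signal of the 11 was 7.31 and 6.999 in psy1r + PSY1, 7.93, 8.04 and 6.31 in psy1r, 7.75, 7.73 and 7.78 in WT + PSY1 and 8.16, 8.24 and 6.997 in WT. Their summed linear signal was 4256 and 3403 in psy1r + PSY1, 5085, 5180 and 2018 in psy1r, 4198 to 4247 in WT + PSY1 and 5361, 5482 and 2656 in WT, and 7 to 11 of the 11 were well above background on an array. In whole seedlings, fewer root hair cells and less RNA per cell cannot be told apart. The part of these transcripts in the EXPA7 and EXPA18 values was not tested.

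**Figure D4:**
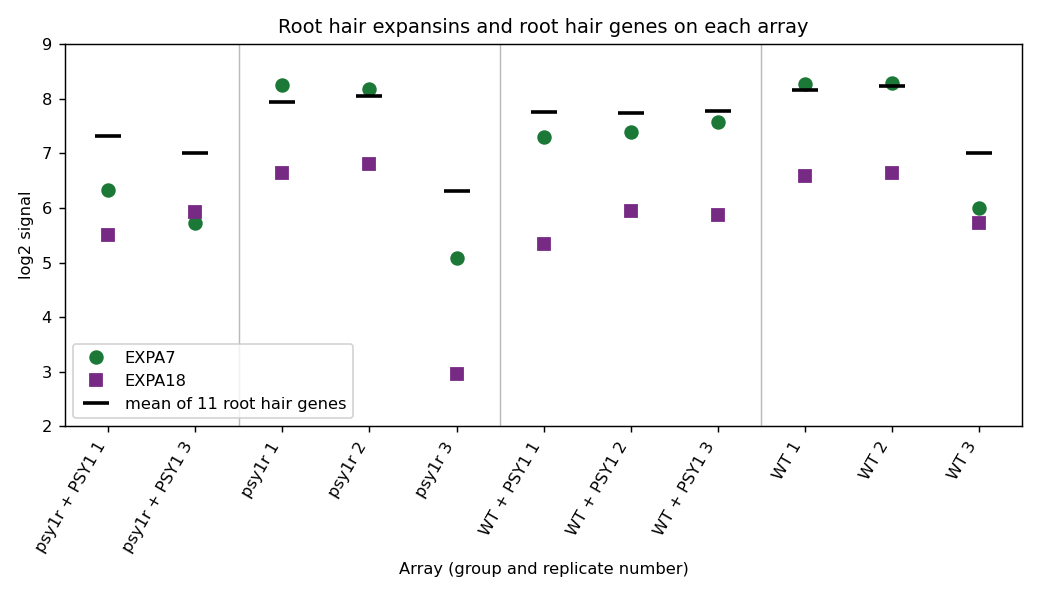
Log2 signal (vertical axis) of EXPA7 and EXPA18 on each array, with the mean log2 signal of 11 other root hair genes as a black bar. All 3 are low on psy1r replicate 3 and on WT replicate 3 relative to replicates 1 and 2 of the same group. Heights of different probes are not comparable.

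Other expansins were also set apart on replicate 3, here taken as more than 2-fold from both other arrays of the group on the same side. In psy1r this held for 4 of the 27 members, all lower, against 11.6% of all loci tested (6.48% lower). In WT it held for 6 of the 26 members measured on all 3 arrays, with 5 lower, against 7.78% of all loci (5.6% lower). The low members in psy1r were EXPA7, EXPA9, EXPA18 and EXPB1, and those in WT were EXPA7, EXPA12, EXPA14, EXLA1 and EXLA3, while EXPA2 was the high one in WT. In WT + PSY1 it held for 0 of 27, against 2.54% of all loci. The 2 psy1r + PSY1 arrays differed past 2-fold for 6 of 27, against 12% of all loci, with EXPA1 and EXPA2 lower and EXPA15, EXPA17, EXLA3 and EXLB1 higher on replicate 3. The neighbouring genes EXLA1 and EXLA3 stood at -2.44 and -1.96 on WT replicate 3 relative to the others, and at -0.50 and -0.25 on psy1r replicate 3.

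**Figure D5:**
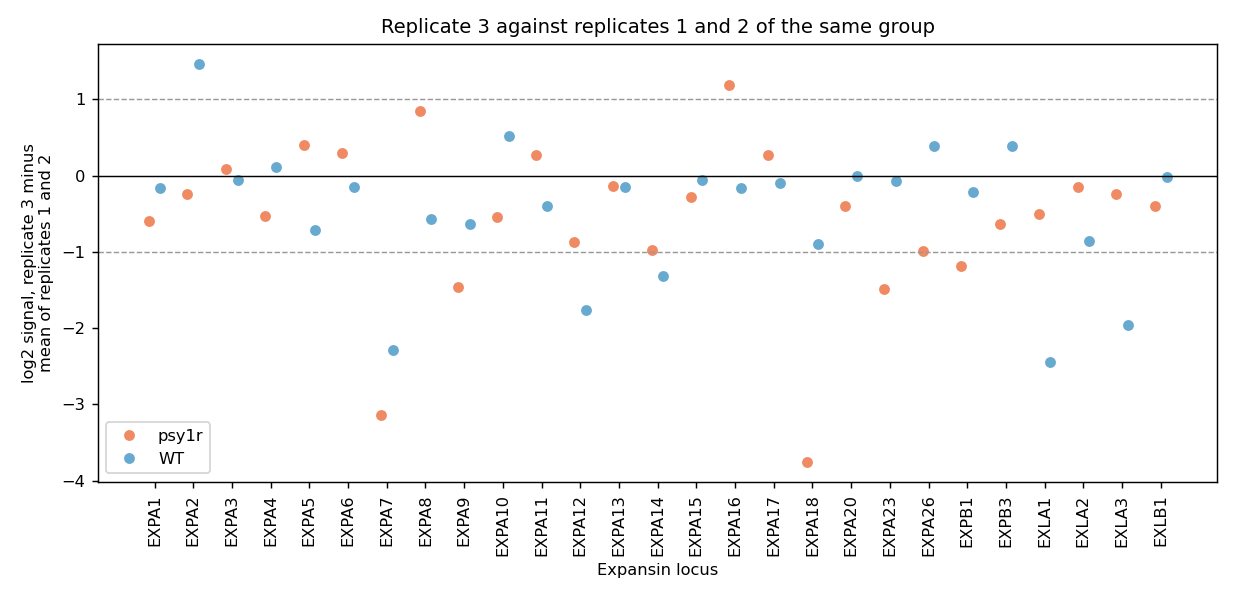
Log2 signal of replicate 3 minus the mean of replicates 1 and 2 (vertical axis) for the 27 tested expansins, in psy1r and in WT. Dashed lines mark a 2-fold difference. EXPA7 is at -3.13 in psy1r, where EXPA18 is plotted at its measured value but was not well above background on replicate 3, and EXPA23 reflects a high replicate 1. EXLA1 and EXPA7 are lowest in WT at -2.44 and -2.28.

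Among the 33 loci with a probe, 5 were well above background on no array, namely EXPA21, EXPA22, EXPA25, EXPB2 and EXPB4. Their probes stayed between 0.74 and 2.59 on the log2 scale. EXPA21 to EXPA26 stand side by side in the genome, and the other 3 genes of this run were seen on scattered arrays. EXPA23 (AT5G39280) was well above background on 2 of 11 arrays, with 5.70 on psy1r replicate 1 and 5.26 on WT + PSY1 replicate 2, and it lay between 0.94 and 2.19 on the other arrays. EXPA26 (AT5G39290) was well above background on 3 arrays, with 4.71 on psy1r replicate 1 and 5.04 and 4.34 on WT + PSY1 replicates 1 and 3. EXPA24 (AT5G39310) was well above background on WT + PSY1 replicate 2 alone, at 4.22.

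None of these signals was shared by all replicates of a group. On WT and on psy1r + PSY1 arrays, none of the 6 clustered genes was well above background. No fold change is given for EXPA23 or EXPA26, since they were well above background on no WT and no psy1r + PSY1 array and on 1 or 2 of the 3 arrays of each other group.

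The other 11 tested members were EXPA1, EXPA8, EXPA9, EXPA11, EXPA13, EXPA14, EXPA15, EXPA20, EXPB1, EXPB3 and EXLA3. By their brightest probes their log2 fold changes lay between -0.72 and 0.69 in the 5 comparisons, and none was called. EXPA13 was the most even of them, with a signal of 9.87 to 10.33 over all 11 arrays. EXPA1 (AT1G69530), an alpha-expansin known from stomatal guard cells, had a signal of 12.62 and 11.32 in psy1r + PSY1, 12.42, 12.38 and 11.81 in psy1r, 11.72, 11.67 and 11.79 in WT + PSY1 and 12.03, 12.28 and 11.997 in WT. It was lower on all WT + PSY1 arrays than on the WT arrays, at -0.37 ± 0.30 (SE, adjusted p = 0.509). EXPA14 (AT5G56320), another expansin known from lateral roots, had a signal of 10.26 and 9.91 in psy1r + PSY1, 10.43, 10.33 and 9.40 in psy1r, 9.77, 9.69 and 9.74 in WT + PSY1 and 9.94, 9.89 and 8.59 in WT. Its difference of psy1r minus WT was 0.58 ± 0.39 (SE, adjusted p = 0.492), with overlap.

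EXPA11 had an unadjusted p of 0.0267 in psy1r + PSY1 against WT + PSY1, where its log2 fold change was -0.63 ± 0.24 (SE, adjusted p = 0.187), and without psy1r + PSY1 replicate 1 it was -1.01 (adjusted p = 0.046). EXPA15 gave 0.62 ± 0.28 (SE, adjusted p = 0.252) in that comparison and 1.19 without the same array (adjusted p = 0.0128). Both of these fits hold psy1r + PSY1 replicate 3, the array rich in seed transcripts, as the single array of its group, which is assumed to vary like the others.

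Expansins act beside enzymes that cut and rejoin xyloglucan (XTH), cellulases and proton pumps. A list of 15 such genes held 11 XTH genes, the cellulases KOR1 and CEL1, and the proton pumps AHA1 and AHA2. All 15 were well above background on every array, and limma called none in any of the 5 comparisons. Unadjusted p-values below 0.05 were found for 3 of the 15 in psy1r + PSY1 against WT + PSY1, 0 in psy1r + PSY1 against psy1r, 3 in psy1r against WT, 5 in WT + PSY1 against WT and 2 in the interaction. The largest value was that of XTH15, with 12.04 and 12.10 on the psy1r + PSY1 arrays, against 13.67, 13.84 and 13.75 on the WT + PSY1 arrays. Its log2 fold change was -1.68 ± 0.42 (SE), which did not pass the test (adjusted p = 0.0811). XTH15 was also lower in psy1r than in WT without peptide, at -1.41 ± 0.38 (SE, adjusted p = 0.118). Its second probe gave -0.93 with peptide and -1.29 without (adjusted p = 0.413 and 0.268). AHA2 had log2 fold changes between -0.02 and 0.13 in the 4 pairwise comparisons by its brightest probe. Its second probe gave -0.58 (adjusted p = 0.138) in WT + PSY1 against WT. In that comparison the AHA1 probes gave -0.29, -0.33 and -0.51 (adjusted p = 0.159, 0.263 and 0.0627). The 5 leaf genes listed, given as a check of the seedling tissue, were well above background on every array and none was called.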

How the data were processed

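RNA of whole seedlings was labelled with Cy3 and hybridised to Agilent Arabidopsis (V4) arrays. Per the file headers, the deposited signal intensity was made with Agilent Feature Extraction 10.7.3.1, background-subtracted and detrended on each array, and left without normalisation between arrays. A table of log2 values deposited beside them was scaled to the 75th percentile and centred by probe, as a comparison with the scanner values showed (r = 0.9999 on each array). The study names RMA in GeneSpring as its normalisation, and these steps were run as an alternative. All 11 columns were matched to a sample.

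Flagged spots were left out, spots of a probe averaged, and log2 intensity scaled to the 75th percentile of each array. Probes seen above background on 2 or more of the 11 arrays (36364 probes) were tested in 1 limma 3.58.1 fit of 4 groups (R 4.3.3), with Benjamini-Hochberg adjustment over all of them. A locus is represented by its tested probe of highest mean. Expansins called, the 3 largest rises and falls without overlap in each comparison, EXPA7, EXPA18 and the EXPA21 to EXPA26 run are given array by array. EXPA3 in WT + PSY1 against WT, EXPA1, EXPA11, EXPA13, EXPA14, EXPA15, EXPB3 and XTH15 were added after their values were seen. Members and lists were chosen with earlier results of these data known. Loci were named through RefSeq transcripts (TAIR10.1). The array's annotation build differs, so no coordinates are given, and probe sequences were not used here, so hybridisation to a close relative was not tested. The number of arrays limits the precision. The method was tested on simulated data with independent noise on each array. That test cannot show how the calls hold where replicates are as close as here.

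Same-numbered arrays share a slide. The correlation of their deviations from the group means was -0.15 to 0.41 over pairs. It was positive in all pairs but that of WT and WT + PSY1 on replicate 2. The number was not used as a block in the fit reported, so deviations shared within a slide were not removed there. It was tried as an alternative, which changed the calls as given below. Other alternatives were another background correction and scaling, other filters, other fits, averaging the probes of a locus, and leaving out each array.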

Additional observations from a re-analysis of the deposited data

Results flagged for a closer look

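The fitted PSY1 differences of EXPA3 had opposite signs in the lines, without overlap of the arrays in either by the brightest probe. Neither passed the test. In psy1r the treated arrays had 10.40 and 10.14, against 10.10, 9.94 and 10.11 untreated, and in WT the treated arrays had 10.34, 10.22 and 10.33, against 10.79, 10.79 and 10.73 untreated. The difference between the responses was 0.69 on the log2 scale, and its test did not pass (adjusted p = 0.23, limma). In psy1r the difference was 0.22 ± 0.12 (SE, adjusted p = 1), at 0.30 within slide 1 and 0.025 within slide 3, and in WT it was -0.47 ± 0.10 (SE, adjusted p = 0.0748). The second EXPA3 probe gave 0.46 (adjusted p = 0.46), and its psy1r + PSY1 arrays (9.17 and 9.33) overlapped its psy1r arrays (9.01, 8.91 and 9.38). No group holds over 3 arrays, so single arrays were not tested as outliers.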

How the results depend on the processing

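Of the 25 values named, 22 kept their sign under all of the 26 alternatives that gave a value. Averaging the probes of a locus reversed EXPA5 in psy1r + PSY1 against WT + PSY1 (-0.23) and against psy1r (-0.091), and EXPA16 in psy1r + PSY1 against WT + PSY1 (0.15), whose probes are opposite in sign.

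EXPA2 in psy1r against WT was called under 18 of 26 alternatives. The number of expansins called there was 2 with array weights and with no limit on the fold. It was 0 with the plain t-test and with replicates 1 and 2 averaged in each group. With close arrays of WT and psy1r counted as 1 sample it was also 0. In WT + PSY1 against WT, the number was 1 with only the groups compared and with the plain t-test, and 2 with array weights. In psy1r + PSY1 against WT + PSY1 it was 1 with normexp and 2 with replicates 1 and 2 only. Replicates 1 and 2 only also gave 2 in psy1r + PSY1 against psy1r (EXPA7 and EXLA3) and 1 in the interaction (EXPA2). Leaving out 1 array gave 0 to 1 in WT + PSY1 against WT, 0 to 2 in psy1r against WT, 0 to 2 in psy1r + PSY1 against WT + PSY1, and 0 to 4 in the interaction, the 4 being EXPA2, EXPA15, EXPA17 and EXLB1 without psy1r + PSY1 replicate 1. Fits without either psy1r + PSY1 array, and those with replicates 1 and 2 only, hold 1 array of that group, which is assumed to vary like the others. With replicates 1 and 2 only, the spread also comes from arrays about as alike as repeated spots, so these calls may rest on technical spread. Calls over all loci changed with the setting too, over 0 to 563 in WT + PSY1 against WT and 0 to 1291 in psy1r against WT. The expansin counts by setting are therefore not read as a result about the family. The causes were not tested.

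With the replicate number as a block, EXPA2 in psy1r against WT stayed called (adjusted p = 0.0368), and 0, 158, 60, 1 and 1 loci of the whole array were called in WT + PSY1 against WT, psy1r against WT, psy1r + PSY1 against WT + PSY1, psy1r + PSY1 against psy1r and the interaction, against 48, 194, 236, 2 and 13 without it. With close arrays of WT and psy1r counted as 1 sample these were 0, 4, 11, 0 and 0. Over all alternatives they ranged over 0 to 563, 0 to 1291, 0 to 1268, 0 to 553 and 0 to 591. Signal over background limits EXPA18, EXPA23, EXPA26 and the second EXPA16 probe.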
